A study of Mus musculus with 3 samples.

Results

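The solute carriers are a large group of membrane proteins, named Slc with a family number and a member number, that move amino acids, sugars, nucleosides, ions, metals, vitamins and metabolic intermediates across the plasma membrane or across the membranes of mitochondria, lysosomes, endosomes, the Golgi apparatus and the endoplasmic reticulum. They do not pump with the energy of ATP. They let a solute run down its gradient, exchange it for another, or couple it to the movement of sodium or protons. Macrophages depend on them to take up fuel, to strip metals from the phagosome, to empty digested peptides and nucleosides out of the lysosome and to supply sugars to the glycoproteins of the secretory pathway.

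The genes described here are the 190 solute carriers with at least 1 RPKM (reads per kilobase of exon for each 1000000 reads counted) in at least 1 of 3 libraries, out of 364 Slc symbols considered and 24453 genes in all. For each symbol the longest coding transcript was used, and 5 of 369 Slc symbols were left out by the rule. RNA came from macrophages of C57BL/6 mice aged 8 weeks, sorted by flow cytometry from the heart, the kidney and the liver as cells carrying CD11b and F4/80 but neither Ly6G nor Ly6C. The sort collects resident macrophages and leaves out neutrophils and inflammatory monocytes, and the labels call the liver sample Kupffer cells, the macrophages of the liver sinusoids. RNA was amplified with a kit for very small amounts, and there was 1 library per tissue. The labels do not give the number of mice behind a library or their sex.

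Without replicates no difference could be set against the variation between animals, so no test was run and every comparison describes these 3 libraries. The reads recovered from the deposited values came to 14460615 in the heart, 15550837 in the kidney and 16743405 in the liver library. All intervals below are exact 95% intervals for counting error only, since copies made by PCR were not told apart from independent molecules. In sorted bulk samples, fewer cells of a type and less RNA per cell cannot be told apart. All 10 macrophage markers checked, such as Adgre1 and Csf1r, had at least 1 RPKM in every library, with a summed level of 2613 RPKM in the heart, 2375 in the kidney and 2479.9 in the liver library. Genes of other cells were present too. The 8 fibroblast genes summed to 160.3, 0.775 and 11.1 RPKM in the heart, kidney and liver library, the 12 distal nephron genes to 66.9, 666 and 46.9, the 13 hepatocyte genes to 1.52, 3.12 and 178, and the 10 endothelial genes to 7.58, 9.03 and 278. Erythroid genes summed to 52.0, 182 and 294 RPKM, lymphocyte genes to 43.3, 184 and 265, neutrophil genes to 18.4, 18.0 and 31.6, and cardiomyocyte genes to 16.5, 5.2 and 0.041, in the same order of libraries. Single genes made up much of some sums. Cd79b, a chain of the B cell receptor, stood at 32.9, 168 and 170.3 RPKM, while its partner Cd79a stood at 0.524, 0.049 and 34.1, and 7 of the 11 lymphocyte genes had 0 reads in the kidney library. Csf3r, a receptor for a myeloid growth factor, stood at 11.8, 17.8 and 31.6 RPKM, and no other neutrophil gene reached 1 RPKM in the kidney or liver library. The 13 proximal tubule genes summed to 217, 243 and 179.6 RPKM, most of it from Gatm, a creatine synthesis enzyme, while Lrp2, Cubn and Miox were each under 0.5 RPKM in all 3 libraries and Kap and Keg1 stood at 4.17 and 3.995 RPKM in the kidney library, with 0 reads in both others.

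The threshold of 1 RPKM chose the members, so which of them pass is a description. The last members inside it were Slc6a8, a creatine carrier, at 1.03, 0.552 and 0 RPKM in the heart, kidney and liver library, Slc2a5, a fructose carrier, at 0, 1.09 and 0, and Slc3a1, a heavy chain of amino acid carriers, at 0.814, 0.393 and 1.15, with 26.5% of its exon bases shared with Prepl. Just outside stood Slc12a4, with its highest level at 0.957 RPKM in the liver library, and Slc6a18 at 0.942 in the kidney. Of the 174 symbols outside, 134 stayed under 0.1 RPKM in every library and 109 had 0 reads in all 3, which at the depth here allows up to 0.104, 0.0965 and 0.0896 RPKM in the heart, kidney and liver library for a gene with 2000 bp of exon. The members made up 52.2% of the symbols considered and came from 43 of 47 families. The families without one were Slc32, Slc34, Slc47 and Slc51.

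Slc25, the family of mitochondrial carriers, was the largest, with 34 of its 47 symbols, followed by Slc35, the nucleotide sugar carriers of the Golgi apparatus and endoplasmic reticulum, with 19 of 27. Some families best known from the transport epithelia and the nervous system were thinner. Slc22, the carriers of organic cations and anions, kept 5 of 25 symbols and Slc6, the sodium and chloride dependent carriers of neurotransmitters and amino acids, 3 of 20. Others were not, such as Slc1, the carriers of glutamate and neutral amino acids, with 4 of 7, and Slc12, the cation and chloride cotransporters, with 5 of 7. Among the members 4 bear a carrier's symbol but encode proteins that are not carriers: Slc9a3r1 and Slc9a3r2, scaffold proteins of sodium proton exchangers, Slc4a1ap and Slc7a6os. They were kept because the rule goes by symbol. Reads were counted on both strands, so a gene cannot be told apart from one that overlaps it, and 32 members share at least 5% of their exon bases with another annotated gene. The larger overlaps are given beside the genes, and of the others named Slc45a3, Slc20a1, Slc10a3, Slc35b4, Slc15a4, Slc7a7, Slc29a1, Slc11a2 and Slc25a37 share from 6.33% to 13.5%.

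Of the 190 members, 144 had at least 1 RPKM in the heart, 148 in the kidney and 146 in the liver library. All 3 libraries shared 103 of them, which was 54.2% of the members, against 64.5% of the 11482 genes that passed the same threshold. Another 42 reached 1 RPKM in exactly 2 libraries, or 22.1% of the members against 16.5% of those genes. Exactly 1 library was reached by 45, or 23.7% against 19.0%, namely 9 in the heart, 16 in the kidney and 20 in the liver library. This last split by library was not counted over all genes. The level of the median member was 3.09 RPKM in the heart, 3.04 in the kidney and 3.66 in the liver library, below that of all genes that passed, at 4.28, 5.72 and 5.29 RPKM.

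A small number of genes carried much of the sum. Together the members reached 1945 RPKM in the heart, 2382 in the kidney and 2467 in the liver library, or 0.708%, 0.832% and 0.792% of the sum over all genes. The 10 most abundant members of each library supplied 42.1% of it in the heart, 41.9% in the kidney and 46.9% in the liver. Of these, 5 were among the top 10 in all 3 libraries: Slc25a5, Slc25a17, Slc25a3, Slc11a1 and Slc29a1.

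**Figure D1:**
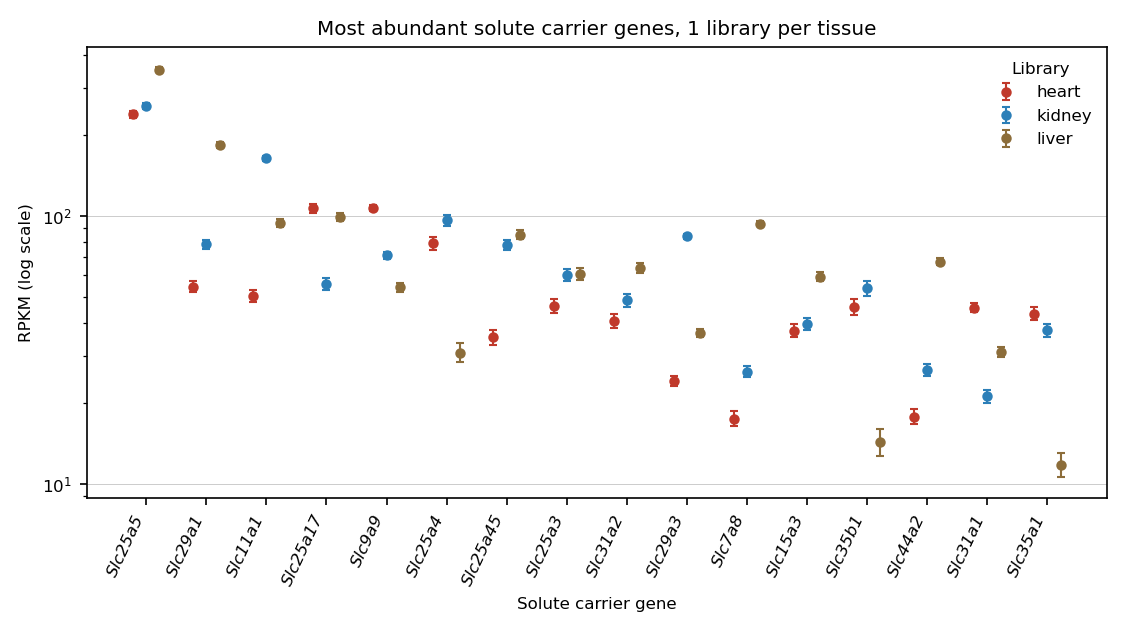
Level of the most abundant solute carriers in RPKM (log axis) in the heart, kidney and liver library, 1 point per library with its exact 95% counting interval. Slc25a5 stood above all others in each library, at 239, 258 and 350.4 RPKM, while Slc7a8 and Slc44a2 were among the 10 most abundant members only in the liver library.

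Slc25a5, the ADP/ATP exchanger of the inner mitochondrial membrane found in most tissues, had 239 RPKM in the heart (232 to 246, 4460 reads), 258 in the kidney (251 to 265, 5176 reads) and 350.4 in the liver library (343 to 358, 7563 reads). It lies on mm10 chromosome X, 36795597 to 36798808. A pseudogene is annotated under its name, so which copy its reads came from is uncertain. Slc25a4, the exchanger known from heart and skeletal muscle, stood at 79.1 RPKM in the heart, 96.2 in the kidney and 30.9 in the liver library. The heart library thus did not hold more of it than the kidney library. Slc25a3, which brings phosphate into mitochondria, stood at 46.2, 60.1 and 60.9 RPKM in the heart, kidney and liver library.

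Slc25a17, a carrier of cofactors in the peroxisome, stood at 107, 56.0 and 99.0 RPKM in the heart, kidney and liver library. Slc25a45 stood at 35.3 RPKM in the heart, 77.7 in the kidney and 84.9 in the liver library. Of the abundant carriers of this family Slc25a4 was thus lowest in the liver library, Slc25a17 in the kidney and Slc25a45 in the heart.

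Slc11a1, the proton-driven metal carrier of the phagosome known for its part in resistance to intracellular microbes, had 50.3 RPKM in the heart (47.9 to 52.8, 1664 reads), 164 in the kidney (159.7 to 168, 5827 reads) and 94.1 in the liver library (91.0 to 97.2, 3603 reads). The intervals do not overlap, and the kidney library was 3.26-fold higher than the heart library (3.08 to 3.44 by counting error). Slc11a1 lies on chromosome 1, 74375203 to 74386051. Slc11a2, its relative for iron uptake from endosomes, ran in another order, at 17.7 RPKM in the heart, 10.9 in the kidney and 1.95 in the liver library. With the most abundant of its transcripts in place of the longest it stood at 19.7, 18.4 and 4.67 RPKM, which put the liver library within 4-fold of both others on the log2(RPKM + 1) scale.

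Slc29a1, an equilibrative nucleoside carrier of the plasma membrane, had 54.5 RPKM in the heart (51.9 to 57.2), 78.3 in the kidney (75.3 to 81.4) and 184 in the liver library (179.7 to 189), on chromosome 17, 45585200 to 45593640. Slc29a3, which exports nucleosides from lysosomes, was instead highest in the kidney library, at 24.3 RPKM for the heart, 84.0 for the kidney and 36.7 for the liver. Slc28a2, which takes up purine nucleosides with sodium, was highest in the heart library, at 40.9 RPKM, with 12.2 in the kidney and 16.9 in the liver library. Each of the 3 genes was thus highest in a different library, and the summed level of the 4 members for nucleosides was 120.4 RPKM in the heart, 176 in the kidney and 238 in the liver library. Slc29a1, Slc11a1 and Slc25a5 were the 3 members with over 2 reads per base of exon in a library, where a limit on reads counted at a position could hold values down. The effect of this limit on them was not tested.

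Differences between libraries were taken on log2(RPKM + 1), and 2 log2 units or more, 4-fold on that scale, counted as higher or lower. Between any pair of libraries 43 members were at least 4-fold apart, which was 22.6% of the members, against 21.5% of all 11482 genes compared. Of these 43, the heart library was highest for 8, the kidney for 14 and the liver for 21. In their lowest library 18 of the 43 had 0 reads. Nothing can be read from these counts about solute carriers as a group, because a gene that passed the threshold through 1 library had to be lower elsewhere. At the other end, 50 members lay within 2-fold in all 3 pairs.

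Against the kidney library, 4 members were at least 4-fold higher and 5 lower in the heart library, where all genes gave 2.4% higher and 5.1% lower. Against the liver library, 13 were higher and 18 lower in the heart, beside 5.33% and 7.13% of all genes. The kidney library had 12 members higher and 15 lower than the liver library, beside 7.57% and 5.1% of all genes. Which direction had more members depended on the processing. With TPM, kidney against liver gave 35 higher and 22 lower and heart against liver 31 and 25. With median ratio scaling, heart against kidney gave 6 higher and 3 lower and heart against liver 18 and 14, and with a pseudocount of 0.1 kidney against liver gave 37 and 28. All genes were not counted under these settings, so the change of direction says nothing about solute carriers as a group. The median member differed by -0.24 log2 units between heart and kidney, -0.10 between heart and liver and 0.01 between kidney and liver, each the first-named library minus the other, close to the medians of all genes at -0.23, -0.16 and 0.04. The comparisons share libraries and are not independent of each other.

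Scaling moved the median of all genes. With the libraries scaled by the median ratio of genes it was -0.07, 0.00 and 0.06 log2 units for heart minus kidney, heart minus liver and kidney minus liver, and with TPM it was -0.22, -0.02 and 0.15. Smaller differences below are to be read relative to that shift.

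**Figure D2:**
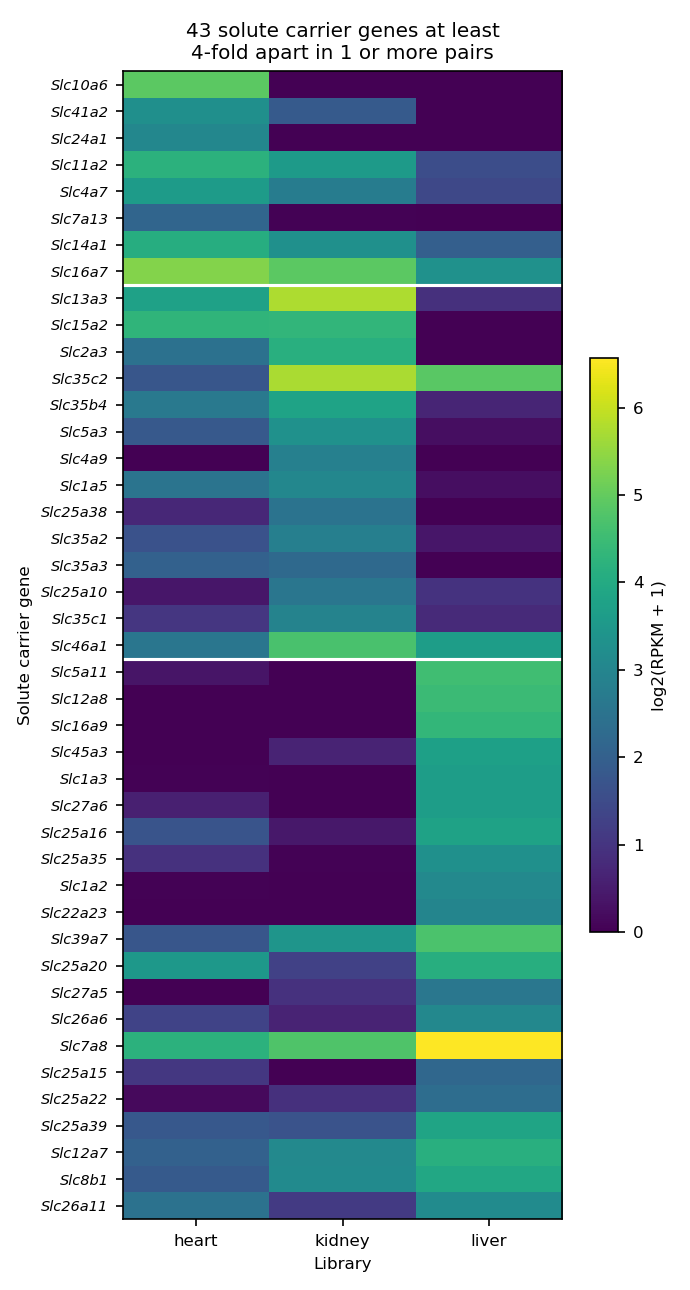
Level of the 43 solute carriers at least 4-fold apart between any pair of libraries, as log2(RPKM + 1), for the heart, kidney and liver library, grouped by the library in which each is highest. The group highest in the liver library is the largest, with 21 genes, beside 14 for the kidney and 8 for the heart. The same split was not counted over all genes, so it says nothing about solute carriers as a group. Of all genes compared, 3.24% were at least 4-fold higher in the liver library than in both others, 2.14% in the kidney and 1.25% in the heart.

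In the heart library 3 members passed this limit upward against each of the others, beside 1.25% of all genes. Slc10a6, a sodium-dependent carrier of steroid sulfates, had 29.0 RPKM in the heart library (27.1 to 31.0, 888 reads) and 0 reads in the kidney and liver library. Taking 3 reads as the floor, the heart level was at least 318-fold higher than the kidney level and at least 343-fold higher than the liver level. Slc24a1, a potassium-dependent sodium calcium exchanger known from rod photoreceptors, had 7.29 RPKM in the heart library from 548 reads and 0 reads in both others. Slc7a13, an amino acid carrier known from the kidney tubule, had 3.38 RPKM in the heart library from 104 reads, 1 read in the kidney and 0 reads in the liver library. The heart library therefore held a carrier known from the kidney that the kidney library nearly lacked. Beside these 3 genes, fibroblast genes stood at 160.3 RPKM in the heart, 0.775 in the kidney and 11.1 in the liver library and cardiomyocyte genes at 16.5, 5.2 and 0.041, and their part in the levels of Slc10a6, Slc24a1 and Slc7a13 was not tested.

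Slc35c2, a Golgi carrier linked to the fucosylation of proteins, was the 1 member that passed the limit downward in the heart library against each of the others, beside 1.26% of all genes. It had 2.37 RPKM in the heart (1.85 to 2.99, 70 reads), 52.4 in the kidney (50.0 to 55.0, 1666 reads) and 28.5 in the liver library (26.7 to 30.3, 974 reads). The kidney library was 22.1-fold higher than the heart library (17.4 to 28.5 by counting error) and the liver library 12.0-fold higher (9.42 to 15.5). Slc35c2 lies on chromosome 2, 165276522 to 165287787.

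In the kidney library 2 members passed the limit upward against each of the others, beside 2.14% of all genes. Slc13a3, a sodium-coupled carrier of dicarboxylates such as succinate, had 12.5 RPKM in the heart (11.5 to 13.5, 578 reads), 53.0 in the kidney (51.0 to 55.0, 2643 reads) and 0.875 in the liver library (0.643 to 1.16, 47 reads). The kidney library was 4.25-fold higher than the heart (3.88 to 4.66 by counting error) and 60.5-fold higher than the liver library (45.4 to 82.6). Its difference between heart and kidney lies just past the limit of 2 log2 units and no longer reached it with median ratio scaling. Slc13a3 is also known from the proximal tubule. Of the 13 genes checked for that segment, 8 had 0 reads in the heart, 2 in the kidney and 8 in the liver library. Kap, Keg1, Lrp2, Pck1 and Acsm2 had reads in the kidney library alone, at 4.17, 3.995, 0.451, 0.321 and 0.185 RPKM, while Cubn stood at 0.018, 0.017 and 0 RPKM in the heart, kidney and liver library and Miox had 0 reads in all 3. The part of tubule RNA in the level of Slc13a3 was not tested.

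The second, Slc4a9, a bicarbonate carrier known from the intercalated cells of the collecting duct, had 6.23 RPKM in the kidney library from 304 reads and 0 reads in the heart and liver library. Distal nephron genes stood at 666 RPKM in the kidney library, with Umod at 215, against 0 for Umod in both others. The part of tubule RNA in the level of Slc4a9 was not tested. Slc25a20, which carries acylcarnitines into mitochondria for fatty acid oxidation, was the 1 member that passed it downward in the kidney library against each of the others, beside 0.705% of all genes, at 10.3 RPKM in the heart, 1.42 in the kidney and 16.4 in the liver library.

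Carriers of the renal epithelium were in part present in the kidney library. Of 50 solute carriers known from the renal tubule, 15 passed the threshold, beside 52.2% of all symbols considered, and symbols left out by the rule are not among the 50. At least 1 RPKM was reached by 7 of them in the heart, 12 in the kidney and 8 in the liver library, and 34, 24 and 38 had 0 reads. The highest of them were Slc7a7, Slc7a8 and Slc13a3, each with reads in all 3 libraries. Slc4a9, Slc5a1, a glucose carrier, Slc1a1, a glutamate carrier, and Slc2a5 were at 6.23, 1.76, 1.43 and 1.09 RPKM in the kidney library, with 0 reads in both others. Slc1a1 shares 31.9% of its exon bases with 4430402I18Rik. Organic anion and cation carriers of the proximal tubule, Slc22a6, Slc22a8 and Slc22a2, had 0 reads in all 3 libraries. The phosphate carrier Slc34a1 stood at 0.65 RPKM in the kidney and at 0 in both others.

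In the liver library 11 members passed the limit upward against each of the others, beside 3.24% of all genes, and 6 passed it downward, beside 2.58%. Slc12a8, a member of the cation and chloride cotransporter family, had 21.2 RPKM in the liver library (20.0 to 22.5, 1119 reads) and 0 reads in the heart and kidney library. The liver level was at least 322-fold higher than the heart level and at least 346-fold higher than the kidney level, and the gene lies on chromosome 16, 33518329 to 33664135. Slc5a11, a sodium-coupled carrier of inositol, had 0.298 RPKM in the heart (0.143 to 0.548, 10 reads), 0 in the kidney (0 reads) and 22.5 in the liver library (21.0 to 24.0, 875 reads). The related inositol carrier Slc5a3 had the reverse pattern, at 2.55 RPKM in the heart, 8.97 in the kidney and 0.192 in the liver library.

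Both glutamate carriers of glia were in the liver group. Slc1a3 stood at 0.033 RPKM in the heart, 0 in the kidney and 11.6 in the liver library. Slc1a2 stood at 0.018, 0 and 7.57 RPKM in the heart, kidney and liver library, on a transcript of 11558 bases, and a shorter coding transcript of 2115 bases stood at 0, 0 and 60.0 RPKM. The level of Slc1a2 in the liver library thus depends on the transcript, and both transcripts had at most 3 reads in each of the others. Slc1a5, the glutamine carrier of the same family, went the other way, at 4.73 RPKM in the heart, 7.21 in the kidney and 0.174 in the liver library.

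Slc16a9, a monocarboxylate family carrier of carnitine, had 19.2 RPKM in the liver library and 0 reads in both others, and shares 23.5% of its exon bases with other annotated genes. Slc27a6, of the fatty acid transport proteins, stood at 0.481 RPKM in the heart, 0 in the kidney and 11.6 in the liver library, although it is best known from cardiac muscle. Slc45a3, a putative sugar carrier known from the prostate, stood at 0, 0.577 and 12.3 RPKM in the heart, kidney and liver library and Slc22a23 at 0, 0 and 6.99. All 4 were at or near 0 outside the liver library.

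The other 3 genes of the liver group were mitochondrial carriers and were present in the heart library as well. Slc25a39, known for bringing glutathione into mitochondria, stood at 2.51 RPKM in the heart, 2.18 in the kidney and 13.2 in the liver library. Slc25a16 stood at 2.25, 0.349 and 12.7 RPKM in the heart, kidney and liver library. Slc25a35 stood at 0.912, 0.035 and 8.89 RPKM, and shares 31.3% of its exon bases with Rangrf. Beside the 11 genes of the liver group, hepatocyte genes reached 1.52 RPKM in the heart, 3.12 in the kidney and 178 in the liver library, where 11 of 13 had at least 1 RPKM, and endothelial genes 7.58, 9.03 and 278, where 7 of 10 had at least 1 RPKM. The part of these cells in the levels of the liver group was not tested.

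Of 23 solute carriers known from hepatocytes, 11 passed the threshold, beside 52.2% of all symbols considered. At least 1 RPKM was reached by 7 of them in the heart, 5 in the kidney and 10 in the liver library, and 12, 15 and 12 had 0 reads. Slc2a2 and Slc38a3, carriers of glucose and glutamine at high level in hepatocytes, had 0 reads in the liver library. Slc10a1, the bile salt carrier of hepatocytes, was highest in the heart library, at 4.44 RPKM from 107 reads, with 1.58 in the kidney and 0.502 in the liver library. Slc27a5, a bile acid and fatty acid CoA ligase of hepatocytes, stood at 0, 0.915 and 5.02 RPKM in the heart, kidney and liver library, and Slc38a4, a neutral amino acid carrier, at 0.106, 0 and 2.30. Slc1a2, described above, Slc16a10, Slc25a15 and Slc35e3 were also highest in the liver library, at 7.57, 6.70, 3.59 and 2.51 RPKM there. Slc38a2, Slc25a13 and Slc39a14 were, like Slc10a1, highest in the heart library, and Slc16a13 in the kidney library. Of 12 solute carriers known from cardiac muscle 9 passed, beside 52.2% of all symbols considered. The 12 summed to 147 RPKM in the heart, 173 in the kidney and 126 in the liver library. Slc25a4 and Slc25a3, described above, made up most of this sum in each library.

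The 6 members of the liver library that passed the limit downward carry peptides, dicarboxylates, glucose, glutamine, a nucleotide sugar and iron. Slc15a2, a proton-coupled carrier of di- and tripeptides, had 18.6 RPKM in the heart (17.5 to 19.7, 1071 reads), 18.9 in the kidney (17.8 to 20.0, 1170 reads) and 0 reads in the liver library. The heart level was at least 413-fold higher and the kidney level at least 419.9-fold higher than that of the liver, and the gene lies on chromosome 16, 36750164 to 36784962. The heart and kidney intervals overlap widely on this transcript. With the most abundant of its transcripts in place of the longest, Slc15a2 stood at 15.4, 28.0 and 0 RPKM in the heart, kidney and liver library. How alike the heart and kidney library were thus depends on the transcript, while the liver library stood at 0 with either.

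Slc2a3, the high-affinity glucose carrier of neurons and leukocytes, had 4.50 RPKM in the heart (3.97 to 5.09, 257 reads), 16.5 in the kidney (15.5 to 17.6, 1014 reads) and 0.015 in the liver library (1 read). The kidney library was 1092-fold higher than the liver library, with a counting interval from 196 to 43164 because of that single read, and the heart library was 298-fold higher (52.9 to 11799). Slc35a3, which brings UDP-N-acetylglucosamine into the Golgi apparatus, stood at 3.10, 3.75 and 0 RPKM in the heart, kidney and liver library. Slc1a5, Slc13a3 and Slc11a2, described above, complete the set.

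Promoter sequences are shown for 4 genes that separate the libraries, Slc10a6 for the heart, Slc13a3 for the kidney, Slc5a11 for the liver and Slc15a2 for a gene at 0 reads in the liver library, so that the region that starts each transcript can be read beside its levels. They come from RefSeq (GRCm38.p6) and run 5′ to 3′ on the gene's strand from 250 bases before the start of transcription to 50 after it. Capitals mark matches to the motifs searched on both strands: AP-1 TGANTCA, CRE TGACGTCA, PU.1 GAGGAA, E-box CANGTG and RBPJ GTGGGAA. Slc10a6 is chr5:103629354-103629653 on the minus strand, Slc13a3 chr2:165473148-165473447 on the minus strand, Slc5a11 chr7:123214616-123214915 on the plus strand and Slc15a2 chr16:36784913-36785212 on the minus strand.
Slc10a6: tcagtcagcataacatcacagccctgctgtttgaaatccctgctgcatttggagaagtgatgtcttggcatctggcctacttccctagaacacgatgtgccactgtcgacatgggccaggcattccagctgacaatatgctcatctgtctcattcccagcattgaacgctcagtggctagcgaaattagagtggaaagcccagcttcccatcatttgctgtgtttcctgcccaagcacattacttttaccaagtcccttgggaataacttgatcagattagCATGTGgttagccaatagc
Slc13a3: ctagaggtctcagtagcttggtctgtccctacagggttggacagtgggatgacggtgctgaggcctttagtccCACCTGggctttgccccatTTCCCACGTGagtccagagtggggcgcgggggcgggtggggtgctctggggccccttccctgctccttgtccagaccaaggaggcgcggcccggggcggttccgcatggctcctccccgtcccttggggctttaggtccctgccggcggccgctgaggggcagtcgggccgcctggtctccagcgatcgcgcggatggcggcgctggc
Slc5a11: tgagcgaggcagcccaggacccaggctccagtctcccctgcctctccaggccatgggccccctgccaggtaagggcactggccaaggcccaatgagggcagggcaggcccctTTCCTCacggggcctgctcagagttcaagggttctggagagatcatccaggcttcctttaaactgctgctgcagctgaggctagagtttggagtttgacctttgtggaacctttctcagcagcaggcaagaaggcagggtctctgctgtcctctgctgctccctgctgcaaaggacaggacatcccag
Slc15a2: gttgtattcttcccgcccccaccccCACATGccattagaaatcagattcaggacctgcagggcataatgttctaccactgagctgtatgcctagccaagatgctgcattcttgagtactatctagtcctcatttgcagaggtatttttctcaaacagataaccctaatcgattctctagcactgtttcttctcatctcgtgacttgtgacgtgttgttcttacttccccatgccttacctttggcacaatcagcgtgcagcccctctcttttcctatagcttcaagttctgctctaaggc

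The promoters differed in base composition. That of Slc13a3 held 69.3% G and C with 22 CpG pairs, that of Slc5a11 60.7% with 2, that of Slc10a6 48.0% with 4 and that of Slc15a2 46.3% with 5. Promoter entries were found for 145 of the 190 members, of which 109 began at the base where the deposited transcript begins, and these 145 had a median of 61.0% G and C and 18 CpG pairs, against 52.7% and 7 over all 32851 promoters. In Slc13a3 an E-box at position -154 overlaps a match to RBPJ at -158, with a further E-box at -177, counted from the start of transcription. Slc10a6 had an E-box at 32, Slc15a2 an E-box at -225 and Slc5a11 a PU.1 match at -138.

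How often these motifs occur was counted in every promoter. The E-box was in 46.2% of the member promoters and 44.9% of all promoters, the PU.1 motif in 22.8% and 28.3%, and AP-1 in 6.9% and 7.81%. RBPJ was in 7.59% of the member promoters and 6.38% of all, and CRE in 2.07% and 1.79%. A match is a run of letters in this window and does not show that a factor binds there.

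By what they carry, the members fell into groups that did not all follow one order of the libraries. Carriers of nucleotide sugars and acetyl-CoA, 20 genes, were highest in the kidney library for 15, beside 69 of all 190 members. The median difference of these 20 was -0.72 log2 units (heart minus kidney), 0.03 (heart minus liver) and 0.89 (kidney minus liver), against -0.24, -0.10 and 0.01 over all members. The summed level was 208 RPKM in the heart, 329 in the kidney and 177 in the liver library. The kidney median kept its sign against both others with TPM and with median ratio scaling. Distal nephron genes summed to 66.9, 666 and 46.9 RPKM in the heart, kidney and liver library. Fxyd2 and Wnk1 made up most of the heart and liver sums, and the part of tubule RNA in this group was not tested.

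**Figure D3:**
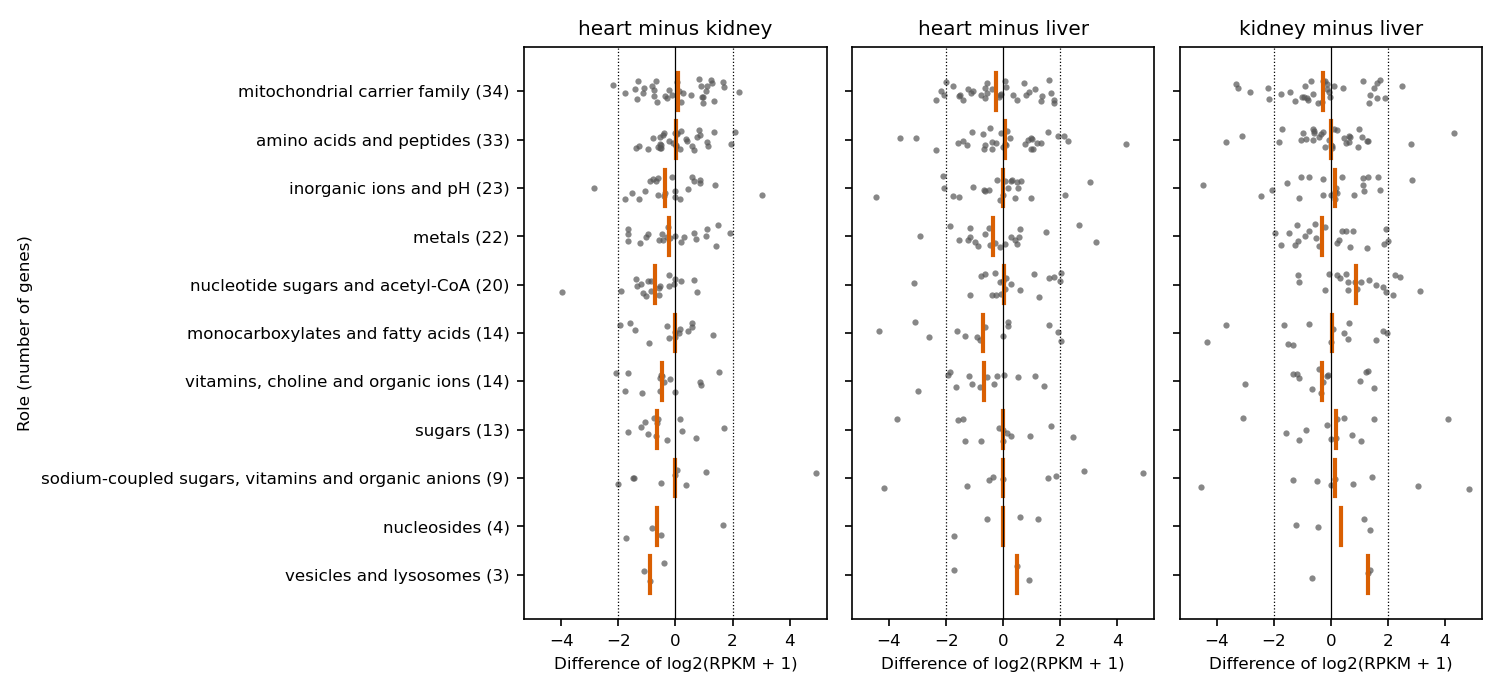
Difference between libraries on log2(RPKM + 1) for each member, grouped by what it carries, for heart minus kidney, heart minus liver and kidney minus liver, with the median of each group as a bar. Carriers of nucleotide sugars sit below 0 for heart minus kidney, with a median of -0.72, and above 0 for kidney minus liver, with a median of 0.89.

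Among the nucleotide sugar carriers, Slc35b1, which moves nucleotides across the endoplasmic reticulum membrane, stood at 45.9 RPKM in the heart, 53.8 in the kidney and 14.3 in the liver library. Slc35a1, the Golgi carrier of CMP-sialic acid, stood at 43.2, 37.5 and 11.8 RPKM in the heart, kidney and liver library. Slc35a2, for UDP-galactose, stood at 2.13, 6.17 and 0.323 RPKM. All 3 were lowest in the liver library. Slc35b4, for UDP-xylose and UDP-N-acetylglucosamine, stood at 5.31 RPKM in the heart, 13.0 in the kidney and 0.6 in the liver library, so the kidney library was 21.7-fold higher than the liver (15.6 to 31.0 by counting error). Slc35c1, the main Golgi carrier of GDP-fucose, stood at 1.04, 6.69 and 0.705 RPKM in the heart, kidney and liver library. It and Slc35c2, its relative, were thus both highest in the kidney library but ordered differently in the others. Slc35d1, for UDP-glucuronic acid, broke the pattern at 11.5, 6.47 and 15.4 RPKM, lowest in the kidney library.

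Amino acid and peptide carriers, 33 genes, were spread over the libraries, with the highest level in the heart for 12, in the kidney for 8 and in the liver library for 13. Slc3a2, the heavy chain that light chains of the Slc7 family need to reach the membrane, stood at 34.8, 30.1 and 55.5 RPKM in the heart, kidney and liver library. Its light chain Slc7a8, a carrier of large and small neutral amino acids, had 17.5 RPKM in the heart (16.5 to 18.7), 26.2 in the kidney (25.0 to 27.5) and 93.7 in the liver library (91.4 to 96.0), or 72.3% of the level of the whole Slc7 family there. The liver library was 5.34-fold higher than the heart for Slc7a8 (5 to 5.71 by counting error) and 3.57-fold higher than the kidney (3.38 to 3.78). In the heart and kidney library another light chain, Slc7a7, for cationic and neutral amino acids, led the family instead, at 33.0 RPKM in the heart, 43.7 in the kidney and 27.7 in the liver library.

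Slc7a11, the cystine and glutamate exchanger, stood at 7.49, 2.92 and 3.95 RPKM in the heart, kidney and liver library. Slc7a5, a further light chain for large neutral amino acids, stood at 1.72, 0.239 and 1.57 RPKM, far below Slc7a8. The arginine carrier Slc7a1 was scarce in all 3, at 1.67, 0.592 and 0.167 RPKM. Slc38a2, a sodium-coupled carrier of small neutral amino acids, stood at 32.0 RPKM in the heart, 21.1 in the kidney and 10.2 in the liver library. Its neighbour Slc38a1, on the same strand of chromosome 15 at a gap of 45430 bp, stood at 3.65, 6.08 and 3.88 RPKM and did not follow it.

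Slc6a6, the taurine carrier, hardly differed, at 28.4 RPKM in the heart, 27.3 in the kidney and 26.3 in the liver library. Slc15a3, a lysosomal exporter of peptides and histidine, stood at 37.4, 39.4 and 59.3 RPKM in the heart, kidney and liver library, and shares 28.1% of its exon bases with Tmem132a. Slc15a4, of the same kind, stood at 6.62, 9.21 and 9.57 RPKM. These lysosomal carriers were present in every library, whereas Slc15a2 of the plasma membrane was missing from the liver library. Slc38a9, which senses lysosomal arginine, stood at 3.98, 6.27 and 3.57 RPKM in the heart, kidney and liver library.

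**Figure D4:**
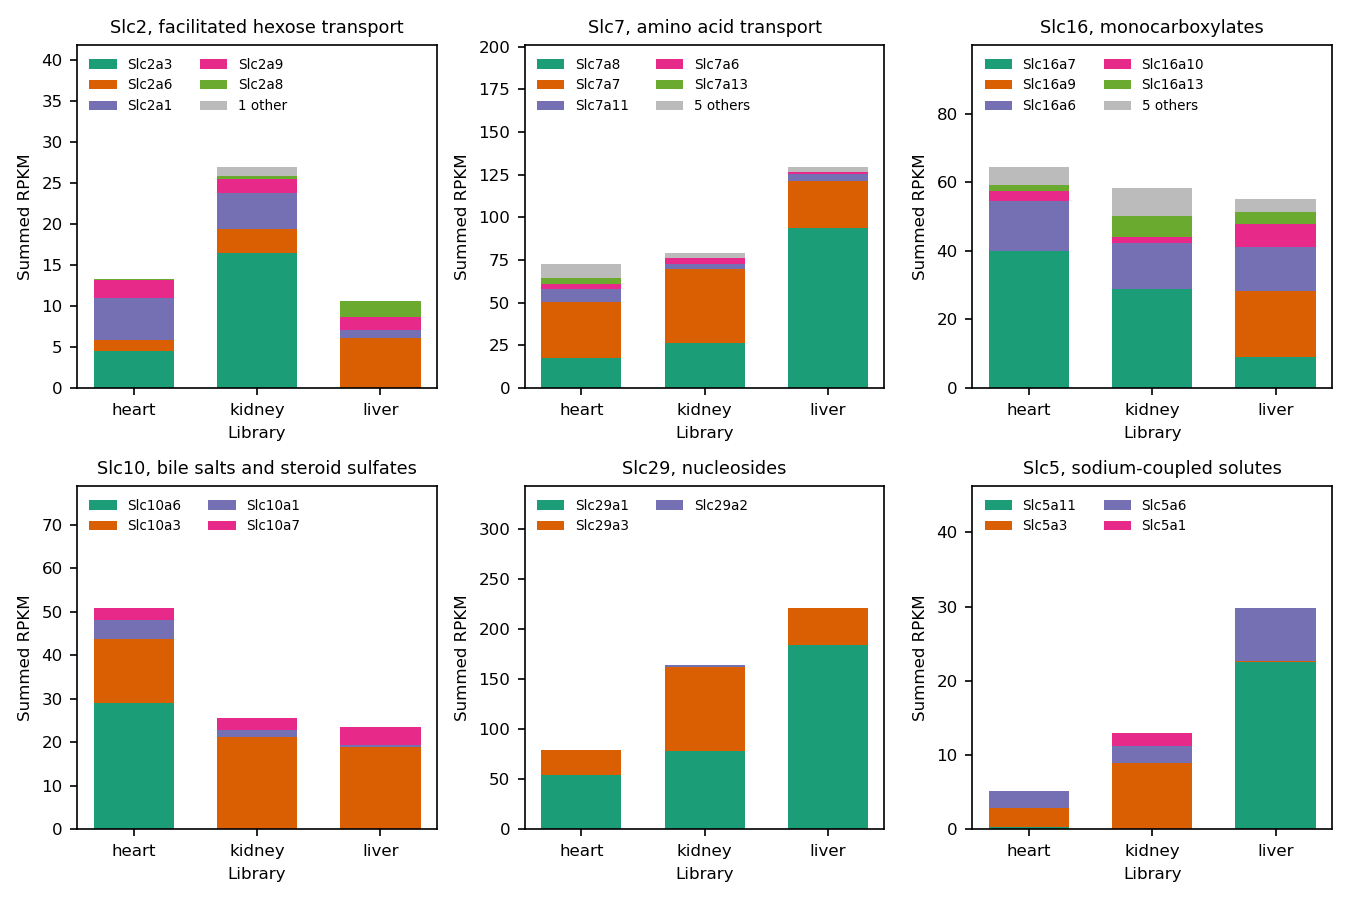
Make-up of selected solute carrier families in the heart, kidney and liver library, as stacked levels in RPKM of the leading members and of the rest. In Slc7 the leading member is Slc7a7 in the heart and kidney library and Slc7a8 in the liver library, and in Slc2 it is Slc2a1, Slc2a3 and Slc2a6 in the heart, kidney and liver library.

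Facilitative glucose carriers changed member from library to library at low levels. In the Slc2 family, Slc2a1, the widespread basal carrier, led in the heart with 38.5% of the family's 13.3 RPKM, Slc2a3 led in the kidney with 61.2% of 27.0 RPKM and Slc2a6, a lysosomal member, led in the liver library with 57.5% of 10.6 RPKM. Slc2a1 stood at 5.13, 4.47 and 0.933 RPKM in the heart, kidney and liver library and Slc2a6 at 1.37, 2.85 and 6.10. Slc2a1 and Slc2a3 were thus both lowest, and Slc2a6 highest, in the liver library.

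Slc37a2, a sugar phosphate exchanger of the endoplasmic reticulum found in macrophages, stood at 11.4, 17.8 and 12.8 RPKM in the heart, kidney and liver library. Slc37a3 had 2.27 RPKM in the heart, 0 reads in the kidney and 1.98 RPKM in the liver library. Slc50a1, a sugar efflux carrier, stood at 18.5, 43.9 and 48.1 RPKM in the heart, kidney and liver library and was the most abundant of the 13 sugar members in each. The median of the sugar members was -0.66 log2 units between heart and kidney, 0.18 between kidney and liver, and -0.02 between heart and liver, where it changed sign with TPM and with median ratio scaling.

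Monocarboxylate carriers showed a comparable change of member. Slc16a7, a high-affinity carrier of lactate and pyruvate, stood at 39.9 RPKM in the heart, 28.8 in the kidney and 8.97 in the liver library. Slc16a1, the widespread carrier, stood at 3.11, 0.654 and 0.081 RPKM in the heart, kidney and liver library, so both were lowest in the liver. Slc16a6 hardly differed, at 14.7, 13.5 and 12.9 RPKM, and shares 23.5% of its exon bases with other genes. Slc16a5 had 2.88 RPKM in the kidney library and 0 reads in both others. Slc16a10, a carrier of aromatic amino acids, was highest in the liver library, at 3.04, 1.71 and 6.70 RPKM in the heart, kidney and liver library.

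Slc16a1 and Slc16a7 need an accessory glycoprotein to reach the plasma membrane, and its 2 forms differed between the libraries. Emb, which encodes embigin, the partner preferred by Slc16a7, stood at 23.9 RPKM in the heart, 39.6 in the kidney and 0.023 in the liver library. Bsg, which encodes basigin, the partner of Slc16a1, stood at 7.11, 28.2 and 12.4 RPKM in the heart, kidney and liver library. Emb, like Slc16a7, was thus lowest in the liver library. Of the 10 partner genes examined 8 passed the threshold, beside 11482 of all 24453 genes. Mpc1, a subunit of the mitochondrial pyruvate carrier, stood at 139.5 RPKM in the heart, 102 in the kidney and 40.6 in the liver library. Mpc2, the other subunit, stood at 4.74, 20.1 and 12.6.

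The mitochondrial carrier family Slc25, which includes the peroxisomal Slc25a17, was the largest group with 34 genes and held the largest share of the level, summing to 619 RPKM in the heart, 676 in the kidney and 808 in the liver library. The liver library was highest for 18 of the 34, beside 76 of all 190 members. The group median was 0.10 log2 units (heart minus kidney), -0.26 (heart minus liver) and -0.29 (kidney minus liver), with the same signs under TPM and median ratio scaling.

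The aspartate and glutamate carriers of mitochondria were highest in different libraries. Slc25a12 stood at 11.8 RPKM in the heart, 27.1 in the kidney and 33.2 in the liver library, and Slc25a13, the form typical of hepatocytes, at 7.83, 1.76 and 2.41. The heart level of Slc25a13 was 4.44-fold that of the kidney library (3.49 to 5.70 by counting error). The dicarboxylate carrier Slc25a10 stood at 0.312, 5 and 0.944 RPKM in the heart, kidney and liver library and the oxoglutarate carrier Slc25a11 at 13.3, 35.6 and 10.2. Both were highest in the kidney library, as was Slc13a3, the dicarboxylate carrier of the plasma membrane. Slc25a11 shares 8.92% and Slc25a10 6.6% of exon bases with other genes.

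Carriers for nucleotides and for heme synthesis also differed. Slc25a36, for pyrimidine nucleotides, stood at 7.61 RPKM in the heart, 1.67 in the kidney and 1.49 in the liver library. Slc25a24, an exchanger of ATP-magnesium and phosphate, stood at 9.31, 4.27 and 4.50 RPKM in the heart, kidney and liver library. Slc25a37, the iron importer of mitochondria in erythroid cells, stood at 2.85, 0.511 and 0.129 RPKM, and Slc25a38, a glycine carrier for heme synthesis, at 0.66, 4.66 and 0. These 2 were therefore highest in different libraries, and neither followed the erythroid genes, which summed to 52.0, 182 and 294 RPKM.

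Among 22 metal carriers the copper carriers followed Slc11a1 by their mean level over the libraries, although the zinc carrier Slc39a1 stood above Slc31a1 in the liver library. Slc31a1, the plasma membrane importer, stood at 45.5 RPKM in the heart, 21.2 in the kidney and 31.0 in the liver library. Slc31a2, its relative in endosomes and lysosomes, stood at 40.6, 48.5 and 64.1 RPKM in the heart, kidney and liver library. The genes lie 62289 bp apart on the same strand of chromosome 4 and were lowest in different libraries. Slc39a1 stood at 14.4, 14.6 and 33.3 RPKM in the heart, kidney and liver library, and a pseudogene is annotated under its name as well. Slc39a7, which releases zinc from the endoplasmic reticulum, stood at 2.41, 9.76 and 25.0 RPKM, and is uncertain because 80.7% of its exon bases are shared with Gm20427. Slc41a2, a magnesium carrier, had 8.67 RPKM in the heart, 2.63 in the kidney and 0 reads in the liver library.

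Of the 23 members for inorganic ions and pH, Slc9a9, a sodium proton exchanger of endosomes, was far the most abundant, at 107 RPKM in the heart, 71.3 in the kidney and 54.1 in the liver library, or 90.6%, 78.1% and 82.2% of its family. Slc9a8, an exchanger of the Golgi apparatus and plasma membrane, stood at 3.25, 11.4 and 2.77 RPKM in the heart, kidney and liver library. Slc4a7, a sodium bicarbonate carrier, stood at 11.1, 5.71 and 1.70 RPKM. Of these only Slc9a8 was highest in the kidney library. Slc8b1, the sodium calcium exchanger of mitochondria, stood at 2.62 RPKM in the heart, 7.86 in the kidney and 14.2 in the liver library. Slc12a7, a potassium chloride cotransporter, followed the same order at 3.09, 7.59 and 16.8 RPKM. Slc20a1, a sodium-dependent phosphate carrier, stood at 26.1, 40.6 and 18.1 RPKM. Slc14a1, the urea carrier of erythrocytes and vessels, stood at 16.0, 8.85 and 2.94 RPKM in the heart, kidney and liver library, so its order was the reverse of that of the erythroid genes.

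Vitamins, choline and organic ions had 14 members. Slc46a1, a proton-coupled carrier of folate, stood at 4.99 RPKM in the heart, 24.6 in the kidney and 11.7 in the liver library. Slc19a1, the reduced folate carrier, stood at 0.68, 4.34 and 5.51 RPKM in the heart, kidney and liver library. Both folate carriers were lowest in the heart library. Slc44a2, a choline carrier, stood at 17.8, 26.6 and 67.5 RPKM, and the liver library was 3.79-fold higher than the heart (3.52 to 4.08 by counting error). Slc23a2, a sodium-coupled carrier of vitamin C, stood at 8.79, 10.3 and 3.58 RPKM in the heart, kidney and liver library.

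Vesicular and lysosomal organic anion and amine carriers had 3 members. Slc18a2, which loads amines into vesicles, stood at 5.26 RPKM in the heart, 10.6 in the kidney and 3.49 in the liver library. Slc17a5, which exports sialic acid from lysosomes, stood at 5.16, 7.11 and 2.31 RPKM in the heart, kidney and liver library, and Slc17a9, the vesicular nucleotide carrier, at 1.33, 3.98 and 6.79. The first of the pair of Slc17 genes was lowest and the other highest in the liver library.

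Outside the Slc symbols, 14 of 17 transport genes found passed the threshold, beside 11482 of all 24453 genes. Slco2b1, an organic anion carrier, stood at 99.0 RPKM in the heart, 156 in the kidney and 4.25 in the liver library, above all but a few of the members in the heart and kidney library. Ank, a carrier of pyrophosphate and ATP, stood at 11.3, 19.3 and 0.309 RPKM in the heart, kidney and liver library. Like Slc15a2 and Slc2a3, both were far lower in the liver library than in the others. The cystine exporter of lysosomes, Ctns, hardly differed at 23.3, 26.9 and 20.5 RPKM.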

How the data were processed

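RNA was sequenced from sorted macrophages of the heart, kidney and liver, with 1 library per tissue. Per the file headers, the authors computed the deposited RPKM values with the HOMER program analyzeRepeats.pl on mm10. It counted exon reads of RefSeq transcripts on both strands, scaled each library to 1000000 and took at most 3 tags per position. The columns are named FPKM, while the header's command asks for RPKM. CASAVA, STAR and mm10 come from the submitters' processing notes, with versions not given in the sources used here.

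Low RPKM values times exon length fell on whole reads. All values of up to 500 reads that could be checked (15239 in the heart, 14167 in the kidney and 12084 in the liver library) lay within 0.1 of one, which gave a depth of 14460615, 15550837 and 16743405 reads. A read that touches several isoforms is counted for each. For each symbol the longest coding transcript was kept. Genes of at least 1 RPKM in a library, 11482 in all, were compared on log2(RPKM + 1), with 2 log2 units as the limit. Intervals are exact 95% Poisson intervals of reads and, for ratios, exact Clopper-Pearson intervals. Folds are ratios of RPKM, with 3 reads as the floor. Shared exon bases come from GENCODE M21, promoters from RefSeq (GRCm38.p6).

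The members and lists were chosen with earlier results of these data known. The lists hold markers of 10 cell types, carriers of the renal tubule, of hepatocytes and of cardiac muscle, partners of carriers, other transport genes, amino acid response genes, NRF2 targets, glucose and lactate enzymes and arginine enzymes. Genes were named by a rule: the 10 most abundant members of a library, the 8 highest and 5 lowest against both others, the 3 widest and 2 most abundant of each role group, the 3 highest of each list of other cells' carriers, the 3 on each side of the threshold and the partners. Other members named were chosen after their values were seen. The values of single genes among those counted are in part not reported here. Alternatives were the pseudocounts 0.1 and 5, TPM, median ratio scaling, other filters, the transcript of highest mean RPKM, and leaving out densely read or overlapping members. The counting of calls was tested on simulated data. Python 3.11.15, pandas 2.3.3, numpy 2.4.6, scipy 1.17.1 and matplotlib 3.10.9 were used.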

Additional observations from a re-analysis of the deposited data

How the results depend on the processing

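The counts of members at least 4-fold apart depended mainly on the pseudocount, which by construction sets how low values weigh. The same counts over all genes were not made under the alternatives. For heart over kidney, heart under kidney, heart over liver, heart under liver, kidney over liver and kidney under liver they were 20, 28, 32, 33, 37 and 28 with a pseudocount of 0.1, and 1, 1, 2, 6, 3 and 3 with a pseudocount of 5. For members higher in the heart, the kidney and the liver than in both others they were 8, 15 and 18 with 0.1, and 1, 0 and 3 with 5. With TPM, whose values are over 3 times larger so that the pseudocount of 1 weighs less, heart over kidney had 15 members, heart under kidney 20, heart over liver 31, kidney over liver 35, and the heart and the kidney against both others 7 and 14. With median ratio scaling heart under kidney had 3 and the kidney against both others 1. The other counts under these scalings, and all 9 counts with no filter, with a filter of 5 RPKM, with the transcript of highest mean RPKM, and without densely read or overlapping members, stayed within 1.5 times. Of the calls of single members, 2 of 9 (heart and kidney), 8 of 31 (heart and liver) and 6 of 27 (kidney and liver) held under every alternative, 5, 18 and 19 were lost only with the pseudocount of 5, and none changed sign. No paired analysis was possible because there was 1 library per tissue, and no library could be left out. Depth limits genes under about 0.1 RPKM.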

Other observations

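Genes of pathways that act on what the carriers bring in differed between the libraries as well. Of 12 amino acid response genes 9 passed the threshold, beside 11482 of all 24453 genes. Ddit3, a stress transcription factor, stood at 19.8 RPKM in the heart, 179.5 in the kidney and 108 in the liver library, and Nupr1, a further stress gene, at 205, 6.63 and 147. Atf4, the factor at the head of this response, hardly differed at 66.8, 54.7 and 54.0 RPKM in the heart, kidney and liver library, and Asns, asparagine synthetase, stood at 1.45, 0 and 0. Of 8 arginine enzymes 5 passed, among them Arg2, the mitochondrial arginase, at 9.39 RPKM in the heart, 0.823 in the kidney and 65.3 in the liver library, while Arg1 and Nos2 stayed under 0.3 RPKM in all 3.

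Of 10 NRF2 target genes 8 passed, beside 11482 of all 24453 genes. The median difference of the 8 was 1.22 log2 units (heart minus kidney), -0.65 (heart minus liver) and -1.50 (kidney minus liver). Srxn1, sulfiredoxin, stood at 37.2 RPKM in the heart, 2.70 in the kidney and 2.06 in the liver library, and Txnrd1, thioredoxin reductase, at 44.4, 8.18 and 35.0. The other 6 were highest in the liver library, among them Taldo1, transaldolase, at 78.8, 168 and 330.4 RPKM in the heart, kidney and liver library, and Gsr, glutathione reductase, at 7.11, 1.62 and 21.6. The carrier Slc7a11, itself known as an NRF2 target, stood at 7.49, 2.92 and 3.95 RPKM. All 11 glucose and lactate enzymes passed. Ldhb, the lactate dehydrogenase subunit of oxidative tissues, stood at 6.89 RPKM in the heart, 133 in the kidney and 18.2 in the liver library, beside Ldha at 128, 116 and 200.4. Ldhb is also abundant in the distal nephron, whose marker genes summed to 66.9, 666 and 46.9 RPKM. Fxyd2 and Wnk1 made up most of the heart and liver sums. The part of tubule RNA in the level of Ldhb was not tested.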
